A study of Mus musculus with 2207 samples.

Results

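*Pvalb* interneurons were represented by 74 nuclei, 22.2% of the inhibitory nuclei, of 1664 neurons and 2207 nuclei in all, from mouse cortex. A nucleus was counted when the submitters labelled it a neuron, its *Gad1* value exceeded its *Slc17a7* value, and *Pvalb* was above 0 and the highest of *Sst*, *Pvalb*, *Vip* and *Lamp5*. Values were RPKM, read counts scaled to the exon length of the gene and to the reads of the nucleus. The members were chosen by their measured levels of these 6 genes, which are given below as a description without any test.

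The study asked how losing 1 copy of *Ehmt1*, which encodes the histone H3 lysine 9 methyltransferase GLP, alters single nuclei of the cortex, and whether GLP supplied after birth alters them back. Nuclei were sorted into wells and their total RNA was sequenced with random-primed RamDA-seq, which also captures RNA without a poly(A) tail. All mice were C57BL/6, were 14 weeks old, and had received tamoxifen 2 times at 100 mg/kg at 3 weeks of age. Each of the 6 pools held nuclei of 3 mice.

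The 96-well plates held wild type (*Ehmt1*+/+, the WT 96-well pool) and Ehmt1Δ/+ nuclei, written Ehmt1delta/+ in the labels. The 384-well plates held 4 pools that all carried *Ehmt1* iTg, a Cre-inducible FLAG-GLP transgene at Rosa26. The WT 384-well pool was *Ehmt1*+/+; *Ehmt1* iTg and the Ehmt1Δ/+ 384-well pool was Ehmt1Δ/+; *Ehmt1* iTg, both without CamKII-CreER. The iTg pool was *Ehmt1*+/+; *Ehmt1* iTg; CamKII-CreER, and the last, Ehmt1Δ/+; iTg, was Ehmt1Δ/+; *Ehmt1* iTg; CamKII-CreER. Values listed for 6 pools follow this order throughout. No label tied a nucleus to a mouse, so a pool was 1 sample. The p-values measure how far a difference varied between pools or pairs of pools, a spread that may be technical. The CamKII promoter that drives CreER is used for excitatory forebrain neurons. *Camk2a* itself averaged 38.1 RPKM in *Pvalb* nuclei and 90.2 RPKM in *Vip* nuclei, against 172.1 RPKM in excitatory nuclei. With this driver the study found FLAG-GLP in most cortical cells stained for the neuronal marker NeuN. Whether the transgene was recombined in *Pvalb* nuclei was not measured here.

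*Pvalb* interneurons are the fast-spiking GABAergic cells of the cortex, mostly basket cells on the soma of pyramidal neurons and chandelier cells on their axon initial segment. They arise in the medial ganglionic eminence under *Lhx6* and *Sox6*, repolarise quickly through Kv3 potassium channels, release GABA through synaptotagmin 2, and are rich in mitochondria. Many are wrapped in a perineuronal net of aggrecan and brevican, and the neuregulin receptor ErbB4 marks much of the class.

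The promoters of *Pvalb* and of *Syt2*, the synaptotagmin 2 gene, are shown because these genes define the class and its transmitter release. Each is the 250 bases before a RefSeq transcription start in GRCm38.p6, the patch release of the mm10 build the files use, read 5′ to 3′ on the strand of the gene. Capitals mark the letters AAGGTCA or their reverse complement TGACCTT, the half-site read by estrogen-related nuclear receptors, whose member *Esrrg* appears among the results. The *Syt2* window is chr1:134646362-134646611 on the plus strand and the *Pvalb* window is chr15:78206401-78206650 on the minus strand.
Syt2: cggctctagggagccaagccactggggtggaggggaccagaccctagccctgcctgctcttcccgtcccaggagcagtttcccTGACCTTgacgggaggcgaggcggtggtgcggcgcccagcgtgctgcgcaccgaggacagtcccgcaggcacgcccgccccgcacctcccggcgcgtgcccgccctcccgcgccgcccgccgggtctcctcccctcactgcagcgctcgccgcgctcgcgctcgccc
Pvalb: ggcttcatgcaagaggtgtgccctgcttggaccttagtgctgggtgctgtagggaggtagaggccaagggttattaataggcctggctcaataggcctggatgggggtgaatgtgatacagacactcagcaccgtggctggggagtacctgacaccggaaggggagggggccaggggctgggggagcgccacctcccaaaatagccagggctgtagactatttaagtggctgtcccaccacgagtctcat
The *Syt2* window holds 1 match, with its first base at position -167 from the start, and the *Pvalb* window holds none. Searched on both strands, the motif occurred in 4.08% of all 32851 promoters of this length. Among the 15302 promoters of tested genes the share was 3.08%. It was 38 of 950 promoters (4%) for genes higher in *Pvalb* nuclei than in other inhibitory nuclei. For the 19 list members higher there it was 5 of 36 promoters (13.9%). The 5 belonged to *Mef2c*, *Scn8a*, *Sox6* and *Syt2*, with *Sox6* counted at more than 1 start. The lists were chosen with earlier results of these data known, and the 13.9% was not tested. When 1 pool was left out, the *Scn8a* call was lost in all 6 fits and that of *Sox6* in 5 of 6. A match is a description of the letters and not of binding.

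The 74 nuclei held an estimated median of 422306 reads (128188 to 1082441), inferred from the RPKM values, and a median of 15612 detected genes. Over all pools the other classes were shallower, with medians of 359211 reads in *Sst* nuclei, 292830 in *Vip* nuclei, 292338 in *Lamp5* nuclei and 354556 in excitatory nuclei. In the 384-well pools *Pvalb* nuclei had medians of 490298, 466054, 547913 and 385338 reads, and *Vip* nuclei 320325, 190210, 256737 and 150409. Whether depth moved the calls between classes was not tested. The pool medians of *Pvalb* nuclei ran from 363753 to 547913 reads. No pair of nuclei had identical columns.

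*Pvalb* itself ranged over the members from 2.25 to 120.7 RPKM with a median of 28.7, and its pool means were 27.4, 20.8, 34.2, 31.1, 38.1 and 33 RPKM. *Gad1*, the GABA-synthesising enzyme used in the rule, had pool means of 90.6, 73.5, 56.9, 70.3, 66.8 and 67.1 RPKM. *Slc17a7*, the vesicular glutamate transporter of excitatory cells, had pool means of 0.233 to 2.52 RPKM and was listed at 0 in 34 of the 74 nuclei. *Sst*, *Vip* and *Lamp5* were all at 0 in 45 nuclei, and *Pvalb* was under 2 times the next of them in 3. The closest nucleus inside the rule had 3.78 RPKM of *Pvalb* against 3.28 of its runner-up, and the closest outside had 11.2 against 12. For *Gad1* against *Slc17a7*, the closest member by ratio had 20.9 against 6.42 RPKM and the closest nucleus outside 3.61 against 4.55. By difference the closest member, from the WT 384-well pool, had 0.24 RPKM of *Gad1* against 0 of *Slc17a7*, with 3.52 of *Pvalb*.

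A detected *Pvalb* value was not specific to these nuclei. *Pvalb* was above 0 in 30.14% and 22.54% of the oligodendrocytes of the 96-well pools, at median depths of 441701 and 478605 reads, and in 1.408% to 4.348% of those of the 384-well pools, at 49635 to 54877 reads. Among microglia the shares were 33.33% and 28.12% in 96-well plates, and 0 of 16 to 23 nuclei in each 384-well pool, which allows a share of up to 13.04% to 18.75% of nuclei with a read at median depths of 39940 to 51469 reads. The mean *Pvalb* level over oligodendrocytes was 0.292 to 1.80 RPKM, but single nuclei with a value reached 7.49 to 62.4 RPKM by pool, and 14, 12, 3, 1, 1 and 2 oligodendrocytes were at or above the lowest member. *Pvalb* was also above 0 in 34 *Sst* nuclei (31.2% of them) and in 15 of the 39 *Vip* and 83 *Lamp5* nuclei (12.3%). Among excitatory nuclei the shares were 26.18% in the WT and 13.18% in the Ehmt1Δ/+ 96-well pool, at median depths of 340936 and 349908 reads. In the 384-well pools they were 6.087% to 9.524%.

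The label was then read against genes outside the rule. *Erbb4* was above 0 in 70 of 74 nuclei, in 9 of 13 of the WT 96-well pool and in every nucleus of the other 5 pools. It was also above 0 in 76.2% of *Sst*, *Vip* and *Lamp5* nuclei and in 73.24% to 97.26% of oligodendrocytes by pool, so detection of *Erbb4* alone did little to set the members apart. *Lhx6*, the transcription factor of the medial ganglionic eminence lineage, was above 0 and above *Adarb2*, an RNA-editing family member typical of the caudal lineage, in 64 of 74 nuclei. *Sst* nuclei, of the same lineage, had *Lhx6* above *Adarb2* in 85.3%, whereas *Vip* or *Lamp5* nuclei had *Adarb2* above *Lhx6* in 82%. *Syt2*, *Kcnc1* and *Acan* were all above 0 in 45 members, and 3 had neither *Syt2* nor *Acan*. Detection of *Kcnc1* alone did not set the members apart, since it was above 0 in all 39 *Vip* nuclei. In *Vip* nuclei *Syt2* was above 0 in 17 and *Acan* in 2. These 3 genes belong to a list of 18 genes of *Pvalb* cells. On that list *Vipr2* was above 0 in 4 members, *Pthlh* in 19 and *Unc5b* in 23, and every other gene in at least 41. *Pthlh* was above 0 in 21 of the 39 *Vip* nuclei. The label thus described most members by *Lhx6* above *Adarb2* and by most listed genes, but not by all.

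In 9 of the 74 nuclei *Adarb2* exceeded *Lhx6*, and *Lhx6* was at 0 in all 9. They numbered 5, 1, 1, 0, 1 and 1 by pool, so 5 of the 13 *Pvalb* nuclei of the WT 96-well pool were of this kind. Their *Pvalb* was 2.25 to 11.4 RPKM, among the 19 lowest of the 74, and *Erbb4* was at 0 in 4 of the 5 from the WT 96-well pool. Summed markers of the *Vip*, *Lamp5* and caudal classes, with *Adarb2* left out, were 31.9, 17.7, 7.91, 11.7, 38.1 and 13.8 RPKM by pool over all *Pvalb* nuclei, highest in iTg. The nucleus with the lowest *Pvalb*, from the Ehmt1Δ/+ 96-well pool, had 343.4 RPKM of *Pdgfra*, 243.4 of *Cspg4* and 749.8 of *Gpr17*, genes of oligodendrocyte precursors, while the next highest *Pvalb* nucleus had 0.823, 4.72 and 2.45. Its *Kcnc1* was 6.68 RPKM, the lowest of the members. Counts of called genes, and the list calls that changed, are given below without these 9 nuclei as well.

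Markers of other cell types were otherwise low. Summed microglial markers were 9.63 to 16.2 RPKM by pool against 2590 to 4170 in microglia, with *C1qa* at 0, and summed oligodendrocyte markers were 2.22 to 20.9 against 3020 to 4990 in oligodendrocytes. Astrocyte markers summed to 1.21 to 6.78 RPKM and endothelial markers to at most 0.05, with *Cldn5* at 0. Precursor markers reached 65.7 RPKM in the Ehmt1Δ/+ 96-well pool alone, through the nucleus described above.

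**Figure D1:**
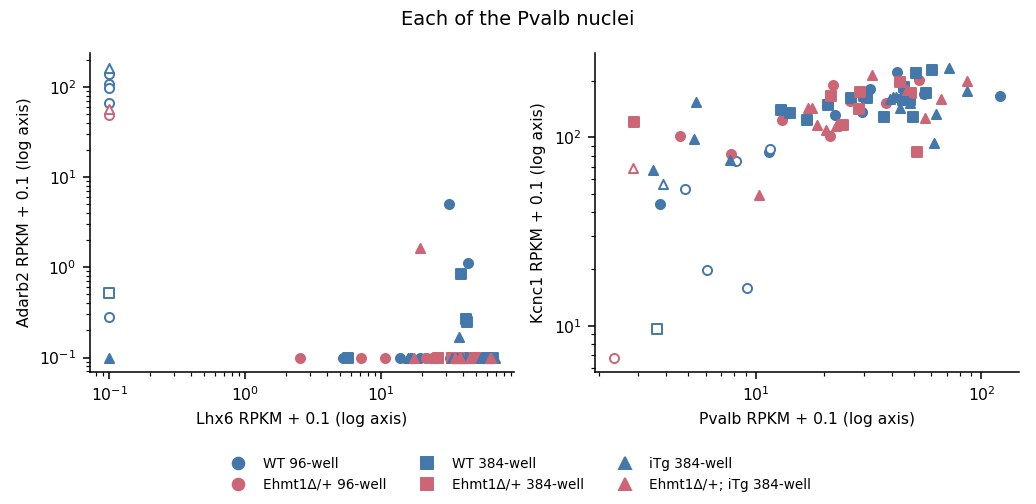
Each point is 1 of the 74 *Pvalb* nuclei on log axes of RPKM + 0.1, with *Adarb2* against *Lhx6* on the left and *Kcnc1* against *Pvalb* on the right, coloured by pool. Open symbols are the 9 nuclei with *Adarb2* above *Lhx6*, all with *Lhx6* at 0 and *Pvalb* at or under 11.4 RPKM.

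The share of *Pvalb* nuclei among neurons was lower in each pool labelled Ehmt1Δ/+ than in its partner, by 1.53 to 3 percentage points, a design too small to test at the usual threshold. In 96-well plates it was 5.14% in WT (13 nuclei, exact 95% interval 2.76% to 8.63%) and 3.40% in Ehmt1Δ/+ (9 nuclei, 1.57% to 6.35%). In 384-well plates it was 5.61% in WT (16 nuclei, 3.24% to 8.96%) and 2.61% in Ehmt1Δ/+ (8 nuclei, 1.14% to 5.09%). With the transgene and CreER it was 5.82% in iTg (16 nuclei, 3.36% to 9.28%) and 4.29% in Ehmt1Δ/+; iTg (12 nuclei, 2.23% to 7.37%). The intervals, which cover counting error only, overlapped in every pair. Background differed between the 96-well pools: in excitatory nuclei *Pvalb* was above 0 in 26.18% in WT and 13.18% in Ehmt1Δ/+. There *Gad1* was above 0 in 64.92% and 28.18%. Whether such background bears on the difference in shares was not tested. The WT 384-well pool had a plate code of its own and the other 384-well pools shared another, so plate and genotype cannot be told apart in that pair.

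The paired differences were -1.74, -3 and -1.53 percentage points, with a mean of -2.09 (SD 0.79, n = 3 pairs). The two-sided exact permutation test gave p = 0.25, the smallest that 3 pairs allow. A lower share of *Pvalb* nuclei and less *Pvalb* RNA per nucleus cannot be told apart, since the rule needs a detected *Pvalb* value. Among inhibitory nuclei the shares were 20.97%, 20.93%, 21.92%, 15.38%, 30.19% and 24%, and the difference in 96-well plates was then -0.04 points. Without the 9 nuclei that had *Adarb2* above *Lhx6*, the difference in 96-well plates was -0.14 points and the mean over pairs -1.44 (SD 1.26). The order of the genotypes was also not the same in every plate group: among 3 plate codes shared by both 96-well pools, 1 held 2 of 61 WT and 4 of 67 Ehmt1Δ/+ neurons, a difference of 2.69 points in the other direction.

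**Figure D2:**
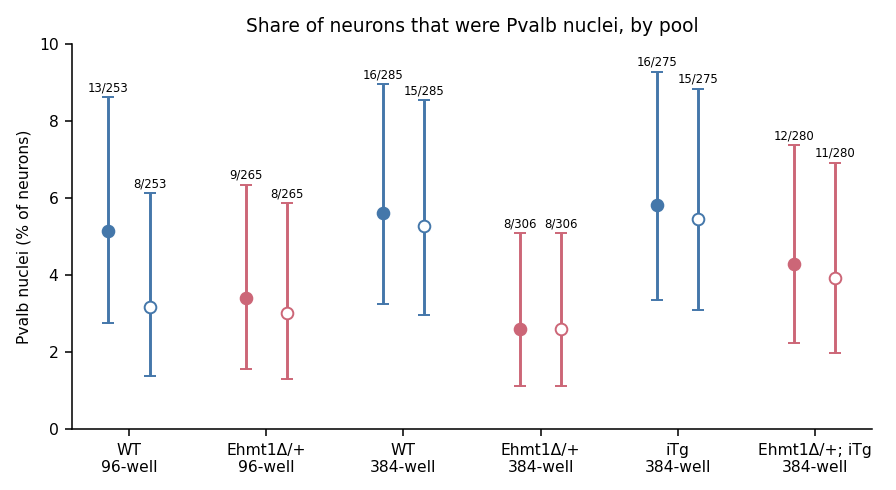
Share of neurons that were *Pvalb* nuclei, in percent, by pool, with exact 95% intervals; filled symbols are all *Pvalb* nuclei and open symbols leave out those with *Adarb2* above *Lhx6*. The filled points lie between 2.61% and 5.82%, each Ehmt1Δ/+ pool under its partner, with overlapping intervals.

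*Pvalb* nuclei differed from the other inhibitory nuclei in named genes of ion channels, extracellular matrix, vesicle release and energy metabolism. *Acan*, which encodes aggrecan, was 10.3 ± 2.87 RPKM in *Pvalb* nuclei and 0.466 ± 0.409 in the *Sst* (11 to 23 per pool), 39 *Vip* and 83 *Lamp5* nuclei (SD, n = 6 pools). *Kcnc1*, the Kv3.1 channel, was 133.4 ± 16.4 against 46.5 ± 6.77 RPKM, and *Syt2* was 27.2 ± 4.11 against 2.08 ± 2.02. Tests were made with limma on log2(mean RPKM + 0.1) of each pool and class, with the pool as a block and Benjamini-Hochberg adjustment at 0.05. Ratios below are differences on that log2 scale, which understates changes of low genes. Of 24301 genes, 1173 (4.83%) were higher and 1653 (6.8%) lower in *Pvalb* nuclei, and the median ratio of all genes was -0.08. Fits that left out 1 pool called 1092 (without WT 384-well) to 2067 genes in all, and without the 9 nuclei that had *Adarb2* above *Lhx6* the count was 3747, of which 2677 were shared. In that fit the ratios of *Kcnc1*, *Acan*, *Syt2* and *Cplx2* were 1.65, 4.48, 4.23 and -3.86.

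Channels of the fast-spiking type were higher in 10 of 11 tested and lower in none, with a list median ratio of 1.20. Of the 10 calls, 5 passed in every fit that left out 1 pool. *Kcnab3*, a potassium channel beta subunit, was 58.8 ± 15.4 RPKM in *Pvalb* nuclei and 16.1 ± 6.84 in the others (log2 ratio 1.93, SE 0.18, adjusted p = 0.00474). For *Kcnc1* the values in *Pvalb* nuclei were 106.4 and 123.5 RPKM in the 96-well pools, 151.4 and 146.4 in the next pair and 135.1 in Ehmt1Δ/+; iTg, with iTg between the last and 146.4, against 37.4 to 54 in the others (log2 ratio 1.52, SE 0.13, adjusted p = 0.00436). Every *Pvalb* pool thus lay above every other pool, by a fold of 2.87 between the means. *Kcna1*, a Kv1.1 channel of axons, gave 71.7 ± 10.2 against 27.8 ± 7.84 RPKM (log2 ratio 1.40, adjusted p = 0.00693). *Kcns3*, a silent subunit that joins Kv2 channels, gave 37.4 ± 12.7 against 14.4 ± 6.59 (log2 ratio 1.46, adjusted p = 0.0417). Its call was lost in 5 of 6 fits that left out 1 pool, all but the one without iTg (adjusted p = 0.0775 to 0.102). *Kcnc1*, *Kcna1* and *Kcnab3* passed in every such fit, but the *Kcna1* call was lost in the 384-well pools alone (adjusted p = 0.0522). *Scn4b*, a sodium channel subunit, was 4.43 ± 1.32 against 4.59 ± 2.00 RPKM (log2 ratio -0.02, SE 0.29).

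Perineuronal net genes were higher in 4 and lower in 1 of 8, and the list median was 0.19, so the net list did not move as a whole. Without the 9 nuclei that had *Adarb2* above *Lhx6*, 3 were higher and 3 lower, and the call of *Tnr*, tenascin-R, was lost (adjusted p = 0.0797). *Acan* was 8.82, 8.16, 15.3, 10.4, 11.6 and 7.49 RPKM by pool and at most 1.22 in any pool of the other inhibitory nuclei (log2 ratio 4.44, SE 0.42, adjusted p = 0.00468). Within the class it was uneven, with 48 of 74 nuclei above 0, a median of 5.75 RPKM and a highest value of 66.7. *Bcan*, brevican, was 71.9, 122.9, 185.7, 169.01, 174.8 and 124.3 RPKM by pool against 19.4 ± 8.59 (log2 ratio 2.96, adjusted p = 0.00436). *Hapln4*, a link protein that joins these proteins to hyaluronan, gave 32.1 ± 8.03 against 7.39 ± 2.96 (log2 ratio 2.18, adjusted p = 0.00547). These 3 genes were higher in every fit that left out 1 pool. *Vcan*, versican, was the member called lower (log2 ratio -3.56, adjusted p = 0.0417). Its level in *Pvalb* nuclei was 25.2 RPKM in the Ehmt1Δ/+ 96-well pool, which held the nucleus with precursor genes, and at most 0.616 elsewhere. That call was lost in 5 of 6 fits that left out 1 pool, all but the one without the Ehmt1Δ/+ 96-well pool (adjusted p = 0.0791 to 0.115).

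Of the vesicle release list, 3 of 10 were higher and 2 lower (list median 0.12), with members of 1 family on opposite sides. *Syt2*, at chr1:134646677-134762593, had 30.8, 27, 24.4, 23.6, 24 and 33.5 RPKM by pool and a ratio of 4.11 (SE 0.45, adjusted p = 0.00574). It was above 0 in 68 of 74 nuclei. *Cplx1*, complexin 1, was 42.3 ± 10.9 against 18.1 ± 5.03 RPKM (log2 ratio 1.23, adjusted p = 0.0123), whereas *Cplx2*, complexin 2, was 2.88 ± 2.65 against 21.7 ± 4.22 (log2 ratio -3.39, adjusted p = 0.0105). By pool *Cplx2* was 6.49, 2.15, 0.917, 0.459, 1.32 and 5.93 RPKM in *Pvalb* nuclei, below every pool of the others, whose lowest was 15.5. *Vamp1*, synaptobrevin 1, was 10.48 ± 2.88 against 3.76 ± 0.947 (log2 ratio 1.45, adjusted p = 0.00695), while *Vamp2*, its more common relative, was 22.9 ± 5.34 against 22.7 ± 4.10. *Syt2*, *Cplx1*, *Cplx2* and *Vamp1* passed in every fit that left out 1 pool. The *Vamp1* call was lost in the 384-well pools alone (adjusted p = 0.0549). *Syt2* overlaps *Ppp1r12b* on the opposite strand, and reads of such pairs cannot be told apart here.

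Energy genes were higher in 4 of 11 and lower in none, with a list median of 0.44. *Ppargc1a*, the coactivator PGC-1α of mitochondrial genes, had 17.2, 25, 16.1, 24.3, 13.7 and 20.9 RPKM by pool against 7.34 ± 1.82 in the others (log2 ratio 1.41, SE 0.21, adjusted p = 0.0115). *Esrrg*, a nuclear receptor that works with it, gave 6.38 ± 1.40 against 2.19 ± 0.682 (log2 ratio 1.53, adjusted p = 0.00489). Both passed in every fit that left out 1 pool, but the *Ppargc1a* call was lost in the 384-well pools alone (adjusted p = 0.0645). *Cs*, citrate synthase, had a ratio of 0.67 (adjusted p = 0.0265), a call lost in 4 of those 6 fits, which left out any one of the 384-well pools (adjusted p = 0.0669 to 0.0773). The respiratory chain members *Ndufs1*, *Sdha* and *Uqcrc1* had ratios of 0.31, 0.32 and 0.38 that did not pass. *Cox6a2*, a cytochrome oxidase subunit known from muscle, was 4.32, 2.67, 11.6, 16.5, 11.2 and 12.8 RPKM by pool, lower in both 96-well pools than in the 384-well pools (log2 ratio 3.31, SE 0.93, adjusted p = 0.0673).

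Of 5 further genes of GABA synthesis and transport, *Gad2* was lower and none higher (list median 0.20). *Gad2*, the second glutamate decarboxylase, was 25.7 ± 5.08 RPKM in *Pvalb* nuclei and 51.1 ± 15.8 in the others (log2 ratio -0.97, SE 0.14, adjusted p = 0.0109). In the 384-well pools alone the call was lost (adjusted p = 0.072). Every *Pvalb* pool, the highest at 32.1, lay below every pool of the others, the lowest at 39.2. The others were not uniform, with *Lamp5* nuclei at 55.4 to 115.96 RPKM and *Vip* nuclei at 67.7, 59.5, 26.1, 20.1, 19.7 and 16.7 by pool, so that in 384-well plates *Vip* nuclei lay near *Pvalb* nuclei. *Slc32a1*, the vesicular GABA transporter, gave 44.6 ± 9.54 against 33.7 ± 6.60 and did not pass (log2 ratio 0.40, adjusted p = 0.0743).

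Among lineage factors, 1 of 15 was higher and 5 were lower (list median -0.30), and the direction followed the classes on the other side. *Prox1*, a factor of caudal interneurons, was at most 2.03 RPKM in any *Pvalb* pool against 12.04 ± 5.68 (log2 ratio -5.27, adjusted p = 0.0104). *Sox6* was higher (log2 ratio 0.81, adjusted p = 0.0323) in the fit of all pools, but not in 5 of 6 that left out 1 pool, all but the one without iTg (adjusted p = 0.0597 to 0.0923). *Lhx6* was 14, 15.4, 38.9, 38.2, 36.4 and 33.8 RPKM by pool, lower in both 96-well pools, and did not differ from the mixture of other classes by the test (log2 ratio 0.25, adjusted p = 0.465).

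The receptor *Erbb4*, at chr1:68032186-69108059, was 67.3, 70.6, 48.8, 50.8, 51.2 and 56.2 RPKM by pool, against 30.5 ± 11.1 in the others (log2 ratio 0.97, SE 0.15, adjusted p = 0.0121). Single nuclei spanned 0 to 234.7 RPKM. Of the other neuregulin and ErbB genes, *Nrg1*, *Nrg2* and *Nrg3* had ratios of -0.54, -0.19 and -0.08 that did not pass, and *Erbb2* and *Erbb3* were too rarely detected to test. Glutamate receptor genes were higher in 1 and lower in 1 of 10 (list median -0.20): *Gria4*, an AMPA receptor subunit, had a ratio of 0.57 (adjusted p = 0.0389). The *Gria4* call was lost in 5 of the 6 fits that left out 1 pool, all but the one without the Ehmt1Δ/+ 96-well pool (adjusted p = 0.0881 to 0.112).

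Activity-regulated genes were lower in 2 of 8 and higher in none (list median -1.13). *Nptx2*, a pentraxin that binds AMPA receptors, was 0.279 ± 0.321 RPKM against 2.30 ± 1.91 (log2 ratio -2.59, adjusted p = 0.0141). It passed in every fit that left out 1 pool. The call was lost in the 384-well pools alone (adjusted p = 0.0638) and with log2(RPKM + 1) averaged over nuclei (adjusted p = 0.0661). The other call, *Nr4a1*, was lost in 5 of 6 fits that left out 1 pool (adjusted p = 0.0555 to 0.13). Genes of GLP and H3K9 methylation were lower in 1 of 13 (list median -0.07): *Suv39h1*, another H3K9 methyltransferase, had 2.13 ± 0.609 against 3.47 ± 0.678 (log2 ratio -0.70, adjusted p = 0.0197). It did not pass without the Ehmt1Δ/+ 96-well, WT 384-well, iTg or Ehmt1Δ/+; iTg pool (adjusted p = 0.0516 to 0.0566). *Ehmt1* itself was 28.4 ± 4.02 RPKM in *Pvalb* nuclei and 28.3 ± 8.08 in the others (log2 ratio 0.04, SE 0.13). Of the 12 inflammation genes only 3 were detected often enough to test, and 1, *Il18*, was called lower (list median -0.52). That call was lost in 5 of 6 fits that left out 1 pool (adjusted p = 0.0701 to 0.119) and under 9 other settings. *Casp1*, the inflammatory caspase, was above 0 in 2 of 74 *Pvalb* nuclei.

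**Figure D3:**
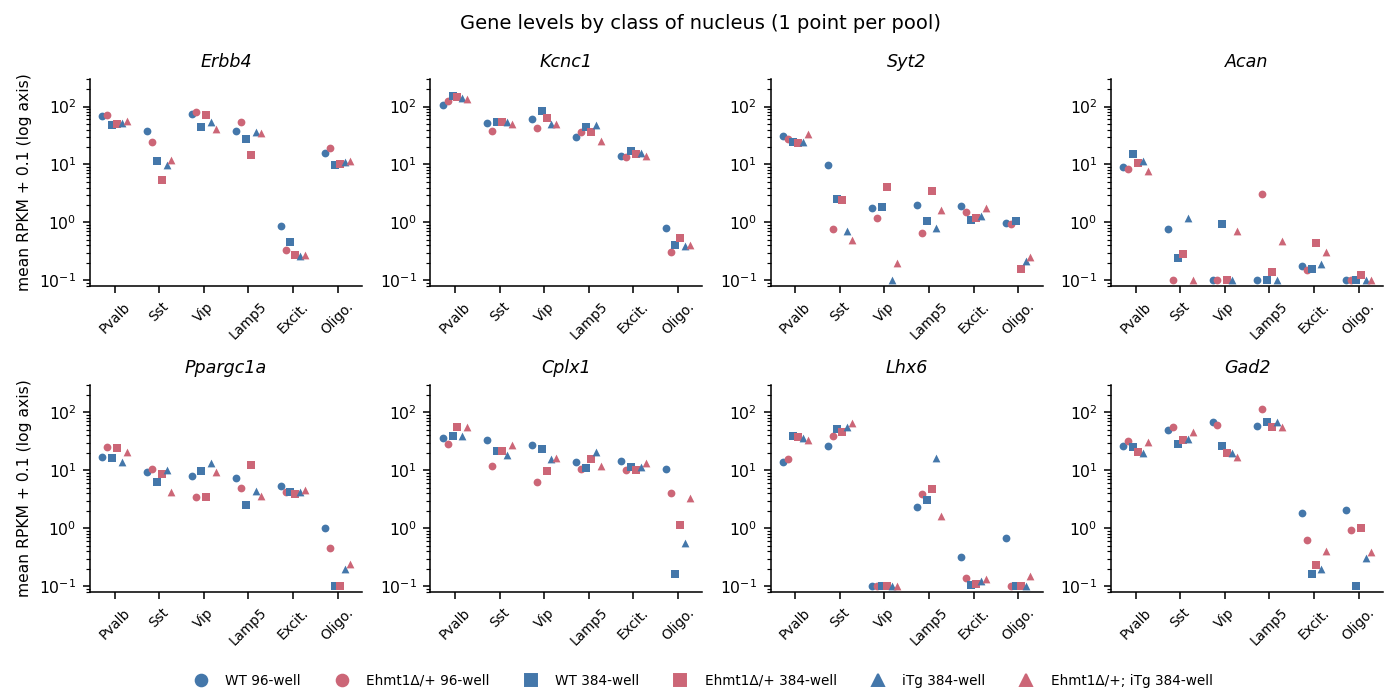
Mean RPKM + 0.1 on a log axis of 8 genes in *Pvalb*, *Sst*, *Vip*, *Lamp5* and excitatory nuclei and oligodendrocytes, 1 point per pool. *Kcnc1*, *Syt2* and *Acan* lie higher in *Pvalb* nuclei than in the other 5 classes in each pool, *Erbb4* overlaps between *Pvalb*, *Vip* and *Lamp5* nuclei, and *Lhx6* is at 0 in *Vip* nuclei.

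Beyond the lists, the highest ratios belonged to genes that were low in the other inhibitory nuclei. *Rubcnl*, a regulator of autophagy, averaged 6.57 RPKM in *Pvalb* nuclei, 4.18 to 11.2 by pool, and 0.0137 in the other inhibitory nuclei (log2 ratio 5.84, adjusted p = 0.00137). *Myo1e*, a class I myosin, had 9.18 ± 3.52 against 0.478 ± 0.360 RPKM (log2 ratio 4.15, adjusted p = 0.00747). *Adamts15*, a protease that cleaves aggrecan and versican, had 14.4 ± 4.26 against 0.874 ± 0.416 (log2 ratio 3.94, adjusted p = 0.00436). *Tcn2*, *Gpnmb*, *Hes3*, *Asb2* and the overlapping pair *Prss23* and *Prss23os* also had ratios of 3.84 to 4.24. At the other end, *Egfr*, the epidermal growth factor receptor, was 0.0418 ± 0.0668 RPKM against 11.3 ± 3.32 (log2 ratio -6.38, adjusted p = 0.0019). *Rgs9*, a regulator of G protein signalling, was 1.23 ± 0.869 against 57.5 ± 18.6 (log2 ratio -5.66, adjusted p = 0.00252). *Pdyn*, prodynorphin, and *Cxcl14*, a chemokine of caudal interneurons, had ratios of -5.80 and -5.62. The other classes were not uniform for these genes. *Vip* nuclei averaged only 4.04 RPKM of *Rgs9* and 0.0544 of *Pdyn*, but 34.9 of *Egfr* and 41.9 of *Cxcl14*.

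Against *Sst* nuclei alone, with which *Pvalb* nuclei share their origin, fewer genes differed, 579 higher (2.37%) and 740 lower (3.03%) of 24417. Of the lineage factors none of 14 passed, and *Lhx6* had a ratio of -0.75 (adjusted p = 0.0606) and *Sox6* one of -0.23. *Kcnc1* was 133.4 ± 16.4 against 50 ± 6.42 RPKM (log2 ratio 1.42, SE 0.14, adjusted p = 0.0103). In the 384-well pools alone this call was lost (adjusted p = 0.0509). *Acan* had 0.348 ± 0.437 RPKM in *Sst* nuclei (log2 ratio 5.10, adjusted p = 0.0103) and *Bcan* 26.9 ± 11.7 (log2 ratio 2.44, adjusted p = 0.00884). In contrast *Kcnc2*, which encodes Kv3.2, was 95.2 ± 28.8 in *Pvalb* and 80.96 ± 44.3 in *Sst* nuclei and did not pass (log2 ratio 0.38, SE 0.23). *Mybpc1*, a myosin-binding protein, had the highest ratio at 6.09 (13.6 ± 5.72 against 0.220 ± 0.446 RPKM, adjusted p = 0.0103).

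*Sst* class markers apart from *Sst* itself were lower in *Pvalb* nuclei in 5 of 8 (list median -3.01). *Reln*, reelin, was 2.51 ± 1.51 against 60.6 ± 12.02 RPKM (log2 ratio -4.75, adjusted p = 0.00881), and *Elfn1*, a postsynaptic organiser of facilitating synapses, was 5.25 ± 2.38 against 63.1 ± 25.2 (log2 ratio -3.56, adjusted p = 0.00771). *Npy* and *Grin3a* had ratios of -3.19 and -3.74. Channels were higher in 5 of 11 (median 1.07), net genes in 3 of 8 (1.33), release genes in 3 of 10 with *Cplx2* lower (0.10) and energy genes in 3 of 11 (0.52), beside a median of -0.03 over all genes. *Erbb4* was 38.4, 24.4, 11.5, 5.27, 9.73 and 12 RPKM in *Sst* nuclei, higher in both 96-well pools, and lower than in *Pvalb* nuclei in all 6 (log2 ratio 2.04, SE 0.31, adjusted p = 0.022). Fits that left out 1 pool called 0.125 (without WT 384-well) to 0.727 times as many genes. *Erbb4* then did not pass without the Ehmt1Δ/+ 96-well, WT 384-well, iTg or Ehmt1Δ/+; iTg pool (adjusted p = 0.0527 to 0.0728), while *Kcnc1*, *Acan*, *Bcan*, *Reln*, *Elfn1*, *Npy* and *Grin3a* passed in all 6. None of the 4 release calls and none of the 3 energy calls against *Sst* nuclei passed in all 6, whereas 2 of the 5 channel calls and 2 of the 3 net calls did. Without the 9 nuclei that had *Adarb2* above *Lhx6*, 8 channels were higher.

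Against *Vip* or *Lamp5* nuclei 1403 genes were higher (5.82%) and 1629 lower (6.75%) of 24127, and here the lineage factors separated, 5 higher and 6 lower of 15 (list median -0.46). *Sox6* was 10.2 ± 2.52 against 0.443 ± 0.497 RPKM (log2 ratio 4.72, adjusted p = 0.00382), *Lhx6* 29.5 ± 11.6 against 3.53 ± 3.52 (log2 ratio 3.34, adjusted p = 0.00661), and *Satb1*, a chromatin organiser that acts after *Lhx6*, 16.3 ± 8.66 against 1.54 ± 0.402 (log2 ratio 3.22, adjusted p = 0.00319). *Prox1* was lower with a ratio of -6.13 (adjusted p = 0.00413). All 4 passed in every fit that left out 1 pool. *Kcnc2* had 25.3 ± 16.7 RPKM in *Vip* or *Lamp5* nuclei (log2 ratio 2.10, adjusted p = 0.00865). So the channel that did not separate *Pvalb* from *Sst* nuclei by the test was higher than in the caudal classes.

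Channels were higher in 9 of 11 (list median 1.39), net genes in 4 with 1 lower of 8 (0.08, or 3 and 3 without the 9 nuclei that had *Adarb2* above *Lhx6*), release genes in 4 with 1 lower of 10 (0.15), and energy genes in 4 of 11 (0.54), beside -0.01 over all genes. *Erbb4* did not pass here (log2 ratio 0.44, SE 0.14, adjusted p = 0.0861): *Vip* nuclei had 41.3 to 79.4 RPKM by pool and *Lamp5* nuclei 14.6 to 54.6, and these ranges overlapped that of *Pvalb* nuclei. *Gad2* was 60.7 ± 23.4 RPKM in *Vip* or *Lamp5* nuclei (log2 ratio -1.19, adjusted p = 0.0115), a call also lost in the 384-well pools alone (adjusted p = 0.085). *Egfr*, *Cxcl14* and *Penk*, proenkephalin, had ratios of -7.31, -6.48 and -6.25. *Rubcnl*, *Tcn2*, *Gpnmb* and *Akr1c18* were listed at 0 in the *Vip* or *Lamp5* nuclei of every pool, so no ratio is given. Fits that left out 1 pool called 1400 (without Ehmt1Δ/+; iTg) to 2044 genes. Calls that passed in all of them were 7 of 9 for channels, 3 of 5 for net genes, 4 of 5 for release genes and 2 of 4 for energy genes.

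**Figure D4:**
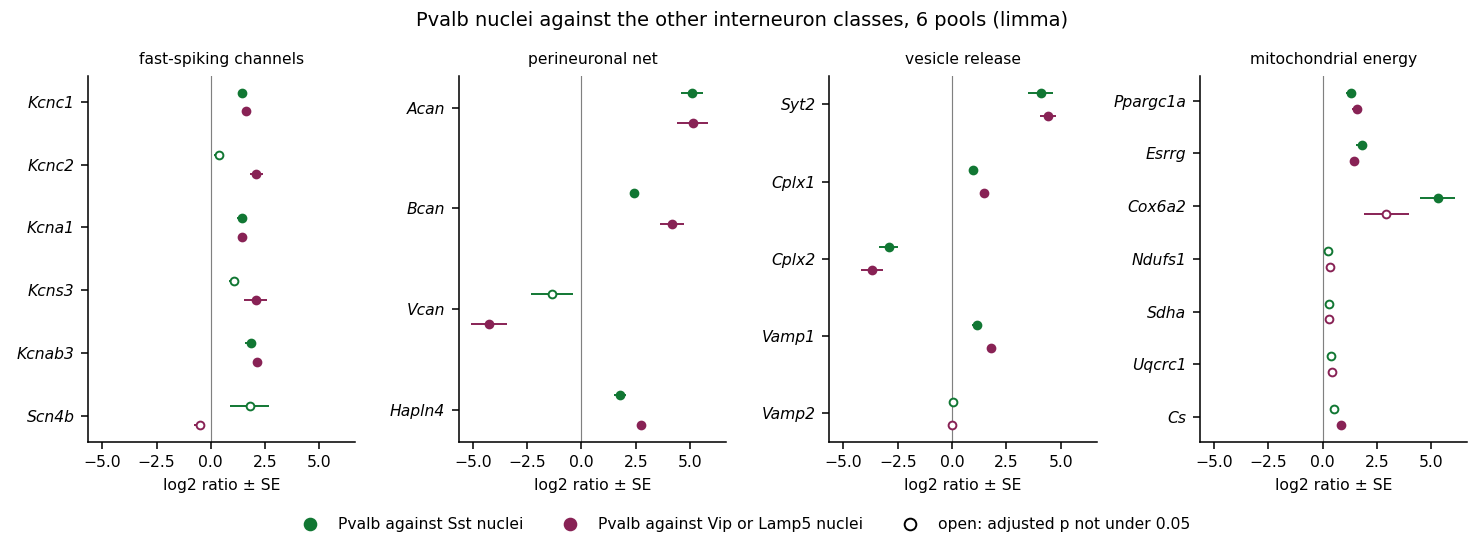
Log2 ratio of *Pvalb* nuclei to *Sst* nuclei (green) and to *Vip* or *Lamp5* nuclei (purple) with its standard error, for members of the gene lists that are named in the text, and open symbols where the adjusted p was not under 0.05. *Kcnc1*, *Acan* and *Syt2* are higher against both, at ratios of 1.42 to 5.13, *Cplx2* is lower against both, and *Kcnc2* is filled only against *Vip* or *Lamp5* nuclei.

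Against excitatory nuclei 3695 genes were higher (14.9%) and 4459 lower (18%) of 24730. *Erbb4* was 57.5 ± 9.27 RPKM in *Pvalb* nuclei and 0.315 ± 0.239 in excitatory nuclei (log2 ratio 7.25, SE 0.23, adjusted p = 1.04e-05). Oligodendrocytes had 9.55 to 18.9 RPKM of *Erbb4* by pool, so outside neurons the receptor was not absent. *Lhx6*, *Dlx1* and *Slc32a1* had ratios of 7.57, 7.51 and 7.33. Of the GABA list 4 of 5 were higher (median 6.02), of the lineage list 11 of 14 with 1 lower (5.14), and of the energy list 8 of 11 (0.57), beside a median of -0.09 over all genes.

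*Kcnc1* was 133.4 ± 16.4 against 14.8 ± 1.46 RPKM (log2 ratio 3.16, adjusted p = 1.04e-05), *Kcns3* had a ratio of 5.10 and *Kcnc2* one of 2.72, and 8 of 11 channels were higher. Net genes were higher in 5 and lower in 1 of 8 (median 1.97). Of the 5, the call of *Ptprz1*, a receptor-type phosphatase, was lost without the 9 nuclei that had *Adarb2* above *Lhx6* (adjusted p = 0.32), with no filter on low values (adjusted p = 0.053) and in 4 of 6 fits that left out 1 pool, those without WT 96-well, Ehmt1Δ/+ 384-well, iTg or Ehmt1Δ/+; iTg (adjusted p = 0.057 to 0.0844). *Ppargc1a* gave 19.5 ± 4.62 against 4.34 ± 0.557 (log2 ratio 2.12, adjusted p = 0.000228) and *Cox6a2* 9.85 ± 5.28 against 0.108 ± 0.146 (log2 ratio 5.54, adjusted p = 9.04e-05). Glutamate receptors divided, 3 higher and 4 lower of 10: *Grin2d*, an NMDA receptor subunit of interneurons, had 23.7 ± 8.02 against 1.54 ± 0.613 RPKM (log2 ratio 3.87), and *Grin2a*, a subunit typical of pyramidal cells, had 18.9 ± 3.99 against 39.4 ± 2.596 (log2 ratio -1.08, adjusted p = 0.00145). Activity-regulated genes were lower in 6 of 8 (median -2.75), among them *Arc*, 3.21 ± 4.16 against 92.97 ± 55.9 RPKM (log2 ratio -5.10, adjusted p = 0.00257), and *Bdnf*, the brain-derived neurotrophic factor (log2 ratio -3.75, adjusted p = 0.000164). Of 11 excitatory markers 10 were lower and none higher, with *Neurod6*, a neurogenic transcription factor, at 0.278 ± 0.682 against 7.75 ± 2.69 (log2 ratio -5.53, adjusted p = 0.000485).

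Between genotypes, the targeted gene came first. *Ehmt1* in *Pvalb* nuclei was 25.5, 24.4 and 24.2 RPKM in the WT 96-well, WT 384-well and iTg pools and 31.3, 32.4 and 32.3 in the pools labelled Ehmt1Δ/+. It was thus higher, not lower, in each pool labelled Ehmt1Δ/+, with log2 ratios of 0.29, 0.40 and 0.41 (fit of 4 pools 0.35, SE 0.35, adjusted p = 0.951). Excitatory nuclei showed the same order, 17.8, 18.7 and 20.3 against 30.5, 30.6 and 34. A value over the whole gene holds reads of the kept part of the allele and of the transgene alike, so it does not check the deletion, and directions below refer to the labels.

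No gene passed the test between Ehmt1Δ/+ and WT in *Pvalb* nuclei (limma, 4 pools with plate format as a block, 0 of 24751, or 0%), and 1293 had an unadjusted p under 0.05. In the 384-well pools of this fit genotype and plate code cannot be told apart. With 1 residual degree of freedom the fit had almost no power, since none of the changes planted in simulated data was recovered. By direction alone, 23.7% of genes were higher and 27.1% lower in both plate formats, and 14.7% were higher and 11.4% lower in all 3 pairs once iTg and Ehmt1Δ/+; iTg were added.

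The genes that separated *Pvalb* nuclei from other classes gave small ratios with wide errors. *Erbb4* differed by 0.07, 0.06 and 0.13 on the log2 scale in the 96-well, 384-well and transgene pairs (fit 0.06, SE 0.34). *Kcnc1* differed by 0.21, -0.05 and -0.03, and *Syt2* by -0.19, -0.05 and 0.48. The SE of these 3 ratios in the fit of 4 pools was at least 0.34, and such differences were not detectable at this depth of replication. Of the lists, 2 of 11 channels were higher and 5 lower in both formats, 3 and 2 of 8 net genes, 0 and 6 of 10 release genes, 1 and 7 of 10 glutamate receptors, 2 and 6 of 11 energy genes and 5 and 3 of 13 GLP and H3K9 genes. Their medians were -0.11, 0.52, -0.27, -0.15, -0.11 and 0.02, beside -0.04 over all genes.

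*Kcnc2*, *Kcns3* and *Ppargc1a*, chosen after their values were seen, were higher in the pool labelled Ehmt1Δ/+ of all 3 pairs. *Kcnc2* was 86.5, 60 and 78.8 RPKM in the WT 96-well, WT 384-well and iTg pools and 137.3, 86.5 and 121.9 in their partners, log2 ratios of 0.67, 0.53 and 0.63. *Kcns3* had ratios of 0.47, 0.78 and 0.68, and *Ppargc1a* ratios of 0.54, 0.59 and 0.61 (fit 0.56, SE 0.34, adjusted p = 0.934). Levels of the groups overlapped for *Kcnc2*, whose 86.5 RPKM occurred on both sides. Since 14.7% of all genes were higher in all 3 pairs, such a pattern was common.

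The genes with the most extreme ratios in both formats often rested on single nuclei: in 8 of the 16 named, 1 nucleus held over 50% of the summed level of the highest pool. *Neb*, nebulin, was 0.111 RPKM in WT and 6.48 in Ehmt1Δ/+ in 96-well plates, and 0.0586 and 1.53 in 384-well plates, and 1 nucleus held 98.4% of the summed level of the Ehmt1Δ/+ 96-well pool. *Treh*, trehalase, was 0.222, 6.02, 1.13, 11.3, 1.20 and 3.42 RPKM by pool, and *Pnoc*, the nociceptin precursor, 0.291, 10.1, 1.20, 8.13, 2.95 and 3.15. In the highest pool 1 nucleus held 48.9% of the summed level of *Treh* (Ehmt1Δ/+ 384-well) and 58.5% of that of *Pnoc* (Ehmt1Δ/+ 96-well). On the other side *Adcy2*, an adenylyl cyclase, was 29.5, 1.07, 3.12, 0, 4.20 and 7.30 RPKM and *Grm4*, a metabotropic glutamate receptor, 3.41, 0, 3.14, 0.0342, 4.38 and 1.47. *Treh* and *Grm4* kept their direction in the transgene pair, with ratios of 1.44 and -1.51, whereas *Adcy2* did not. The adjusted p was 0.925 for each of these, and *Grm4* was at 0 in all 9 *Pvalb* nuclei of the Ehmt1Δ/+ 96-well pool.

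**Figure D5:**
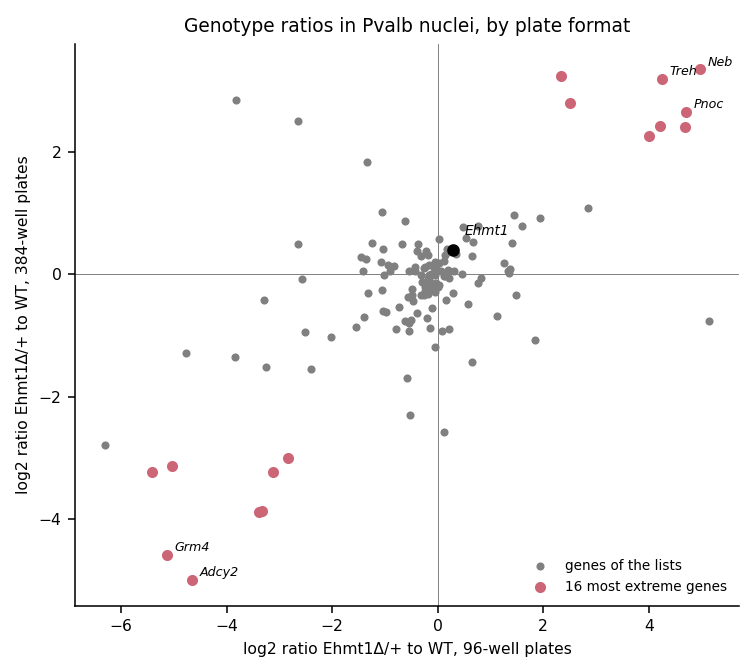
Log2 ratio of the Ehmt1Δ/+ to the WT pool in *Pvalb* nuclei, in 96-well (horizontal) and 384-well plates (vertical), with grey points for list genes, red for the 16 most extreme genes (labelled where described) and black for *Ehmt1*. *Ehmt1* lies at 0.29 and 0.40, most list genes lie near 0, and none passed the test.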

How the data were processed

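Single nuclei of mouse cortex were profiled by RamDA-seq in 6 pools, and 2 tables of RPKM per gene and nucleus, 1 per plate format, were deposited by the authors. Per the labels and methods, Fastq-mcf had removed adapters, HISAT2 2.0.4 had placed the reads on mm10, and the authors counted them with featureCounts of Subread 1.5.0 on Gencode genes with default settings. The default does not use strand, so overlapping and antisense genes cannot be told apart. The deposited RPKM values carry no counts, so count models were not used. Reads per nucleus were estimated from the RPKM values and Gencode exon lengths, taking the commonest low value as 1 read. For *Sst* the length was itself inferred from the steps of its values.

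Nuclei took the submitters' cell labels and were classed by the marker rule described at the start. Mean RPKM of each pool and class was tested as log2(mean + 0.1) with limma 3.58.1 in R 4.3.3, with pool or plate format as a block and Benjamini-Hochberg adjustment at 0.05, for genes above 0 in at least 10% of nuclei. The methods give a test over single nuclei, and pool means were tested here because nuclei of a pool are not replicates. Shares were computed in Python 3.11.15 and scipy 1.17.1. Tested on simulated data, the comparison with other inhibitory nuclei (24301 genes) recovered 15, 34, 42 and 47 of 50 genes changed by 1, 2, 3 and 4 on the log2 scale, with 10 false calls. The comparison with excitatory nuclei (24730 genes) recovered 19, 38, 44 and 48 of 50, with 20 false calls. The genotype comparison (24751 genes) recovered 0 at each size.

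Members and gene lists were chosen with earlier results of these data known, so they support nothing by themselves. Named genes were the marker genes, *Ehmt1* and *Casp1*, the 12 highest and 8 lowest called ratios with the same sign in every pool and a mean of at least 1 RPKM, up to 4 called members per list, and for genotypes the 8 most extreme genes in each direction above 0 in at least 25% of nuclei. Predicted genes, pseudogenes and small RNAs were passed over. List members outside the rule are named where a count or comparison needed them. Alternatives changed the pseudocount, the filter, the averaging, the scaling, the weights, the class rule and the pools. Promoters were taken from RefSeq. Some genes of the lists are not reported here by name.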

Additional observations from a re-analysis of the deposited data

Results flagged for a closer look

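*Adarb2*, the caudal class gene, averaged 32 RPKM in *Pvalb* nuclei of the WT 96-well pool and 0 to 10.2 in the other 5 pools, a gap that stands apart by Dixon's test. *Unc5b*, a netrin receptor, averaged 10.8 RPKM in the Ehmt1Δ/+; iTg pool, where 1 nucleus held 70.1 RPKM, and it stood apart in the same way. *Vipr2*, a receptor for VIP, averaged 1.82 RPKM in the iTg pool through 1 nucleus with 29 RPKM. These 3 came from 29 genes looked at, and chance marks about 1 in 20 sets of samples. *Gad1*, which the rule used, differed by -0.30 on the log2 scale between Ehmt1Δ/+ and WT in 96-well plates and in the other direction in both 384-well pairs, a difference between plate formats that was not tested.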

How the results depend on the processing

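The lower share of *Pvalb* nuclei in Ehmt1Δ/+ pools kept its direction under the other class rules, thinning to 206720 reads (-2.23 points, with 0, 0, 32, 44, 31 and 60 neurons too shallow, beside -2.09 unthinned) and each left-out pair, but reversed within 1 of 3 plate codes of the 96-well pools, at 2.69 points. Counts of called genes depended more on the processing, and are given as ratios to 2826 against other inhibitory nuclei, 1319 against *Sst* nuclei, 3032 against *Vip* or *Lamp5* nuclei and 8154 against excitatory nuclei. Averaging log2(RPKM + 1) over nuclei gave ratios of 1.74, 2.24 and 1.92 against other inhibitory, *Sst* and *Vip* or *Lamp5* nuclei. It also moved the share of higher genes among those called from 41.5% to 64.7%, 43.9% to 55.6% and 46.3% to 70.4%. Against *Sst* nuclei, a pseudocount of 0.01 gave 0.575, a pseudocount of 1 gave 1.68, no filter gave 0.475, and a trended variance gave 1.76. No filter moved the share of higher genes against excitatory nuclei from 45.3% to 34.8%.

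Among alternatives chosen after seeing the data, leaving out nuclei with *Adarb2* above *Lhx6* gave 1.69 against *Sst* nuclei, and the 384-well pools alone gave 0.329, 0.142 and 0.315 against other inhibitory, *Sst* and *Vip* or *Lamp5* nuclei. Leaving out 1 pool gave 0.386 to 0.731, 0.125 to 0.727 and 0.462 to 0.674 in the same order. The pools whose loss moved the count against other inhibitory nuclei by over 1.5 times were WT 384-well (0.386), Ehmt1Δ/+; iTg (0.43), iTg (0.52), Ehmt1Δ/+ 96-well (0.571) and Ehmt1Δ/+ 384-well (0.588). Against *Sst* nuclei they were WT 384-well (0.125), iTg (0.163), Ehmt1Δ/+; iTg (0.226), Ehmt1Δ/+ 384-well (0.265) and Ehmt1Δ/+ 96-well (0.31), and against *Vip* or *Lamp5* nuclei Ehmt1Δ/+; iTg (0.462), WT 384-well (0.47), Ehmt1Δ/+ 96-well (0.61) and Ehmt1Δ/+ 384-well (0.651). Fewer pools leave fewer degrees of freedom; otherwise the cause was not tested. None of the ratios named against other classes reversed. The *Erbb4* ratio between genotypes, 0.06, turned to -0.01 under the stricter *Pvalb* rule and to -0.22 without the nuclei that had *Adarb2* above *Lhx6*. No gene passed between genotypes under any alternative run, with 967 to 1564 at an unadjusted p under 0.05. Pairing by replicate number was not possible, because the labels give none. Pools or plate format were the block in each fit, and the shares of the 3 genotype pairs were tested as pairs.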
